A study of Homo sapiens with 15 samples.

Results

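Aminoacyl-tRNA synthetases are the enzymes that join each amino acid to its transfer RNA. The count table of this study held 36 genes for them, chosen by symbol, among 28518 symbols: 20 cytosolic enzymes and 16 mitochondrial enzymes, whose symbols end in 2. Symbols are the older ones that the table uses (GARS, not GARS1). All 36 passed the filter on low counts and were among the 14971 genes tested, so no member was lost to it. RNA was sequenced from HaCaT, a line of human keratinocytes that became immortal in culture, after CRISPR editing of CARD14. CARD14 is a keratinocyte scaffold that assembles a signalling complex with BCL10 and the protease MALT1, upstream of NF-kB. There were 5 groups of 3 libraries (letters a, b, c): CARD14 R820W/R820W cells with 10 µM mepazine, a phenothiazine inhibitor of MALT1; R820W/R820W cells with vehicle (DMSO); CARD14 WT/WT cells with 10 µM mepazine; CARD14 knockout (KO) cells with vehicle; and WT/WT cells with vehicle. Treatment lasted 24 h in all groups, and the labels do not say how many edited clones stand for a genotype.

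Charging happens separately in the cytosol, where messenger RNA from the nucleus is translated, and in the mitochondrion, which translates its own few messages. All synthetases are encoded in the nucleus. GARS and KARS serve both compartments from 1 gene each and are counted here with the cytosolic set, EPRS charges both glutamate and proline, and FARSA and FARSB are the subunits of 1 enzyme. Several cytosolic enzymes are held together with 3 scaffold proteins in the multisynthetase complex. Many cytosolic synthetase genes are textbook targets of ATF4, the transcription factor of the amino acid response, and the E-box CACGTG is the best known binding sequence of MYC, the factor named in the title of the series.

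Promoter sequences of RefSeq (GRCh38.p14, from 250 bases before to 50 after each gene's start) were found for 16 of the 20 cytosolic and 14 of the 16 mitochondrial genes. The letters TGATGNAA, the form of the ATF4-C/EBP composite element, were searched on both strands, as was CACGTG; IARS was the only gene with both, and there they did not overlap. The windows below show the cytosolic genes with the composite element and the mitochondrial genes with the E-box, with the match in capitals, 5′ to 3′ on the strand of the gene.
AARS (chr16:70289676-70289703, minus strand): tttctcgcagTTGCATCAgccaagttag
CARS (chr11:3057408-3057435, minus strand): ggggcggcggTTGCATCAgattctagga
IARS (chr9:92293693-92293720, minus strand): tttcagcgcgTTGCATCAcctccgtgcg
MARS (chr12:57488054-57488081, plus strand): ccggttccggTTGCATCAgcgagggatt
NARS (chr18:57621805-57621832, minus strand): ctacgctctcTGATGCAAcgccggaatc
TARS (chr5:33440957-33440984, plus strand): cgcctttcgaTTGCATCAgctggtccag
MARS2 (chr2:197705348-197705373, plus strand): gcgcctctcaCACGTGctgtcagaac
CARS2 (chr13:110706503-110706528, minus strand): ctgggatgcaCACGTGcttcgctaac
EARS2 (chr16:23557350-23557375, minus strand): gggagaagccCACGTGtgctattcca
The composite element was present in 6 of the 16 cytosolic promoters and 1 of the 14 mitochondrial ones (YARS2), against 3.62% of 35116 promoters of the same length. In all 6 cytosolic genes the 8 bases were TTGCATCA or its reverse complement TGATGCAA. In 5 of them, CARS, IARS, MARS, NARS and TARS, the first base of the match lay between positions -13 and 15 from the start of the gene (the start is position 1), and in AARS it lay at -187. CACGTG was present in 1 cytosolic promoter (IARS) and 3 mitochondrial ones, against 7.26% of all. A match in these windows is a description of the letters, and binding was not measured.

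Libraries held 20630099 to 26974363 counts, and 3 counts were worth 0.111 to 0.145 CPM, the unit of counts scaled to library size, here with TMM factors. CARD14 itself stood at 1.13 to 2.01 CPM in every library and was called in no comparison, so its level does not check the knockout. All 9 keratinocyte markers were present, with summed levels of 4692 to 5020 CPM in R820W with mepazine, 4611 to 4891 in R820W with vehicle, 5209 to 5723 in WT with mepazine, 5648 to 6426 in KO and 5884 to 6153 in WT with vehicle. The summed level of 6 fibroblast markers was 23.4 to 33.2 CPM in R820W with mepazine, 5.33 to 11.1 in R820W with vehicle, 3.44 to 5.15 in WT with mepazine, 2.34 to 2.87 in KO and 2.47 to 2.63 in WT with vehicle, carried by COL1A1, DCN and LUM, with the collagens COL1A2 and COL3A1 at or near 0 throughout. That of 3 endothelial markers, carried by CDH5, was 22.2 to 35.8 CPM in R820W with mepazine, 7.70 to 10.5 in R820W with vehicle, 10.1 to 13.3 in WT with mepazine, 4.78 to 5.50 in KO and 4.42 to 6.95 in WT with vehicle. The melanocyte genes TYR and DCT were at 0 in all 15 libraries. The other 2 of that list, PMEL and MLANA, had counts in each, and the list summed to 0.809 to 2.60 CPM. PMEL was called higher in R820W than in WT under mepazine (log2 fold change 0.89). Leukocyte markers summed to 4.38 to 6.50 CPM, carried by CD68. CD14 among them was called higher in R820W than in WT, by 1.12 with vehicle and 1.34 under mepazine on the log2 scale. These shifts run beside the synthetase results in the R820W and mepazine groups, and their part in them was not tested.

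Together the 20 cytosolic genes took 0.349 ± 0.00943% of all counts in R820W with mepazine, 0.440 ± 0.0127% in R820W with vehicle, 0.413 ± 0.0104% in WT with mepazine, 0.460 ± 0.00926% in KO and 0.481 ± 0.0115% in WT with vehicle (SD, n = 3 each). The 16 mitochondrial genes took 0.0797 ± 0.00234% in R820W with mepazine, 0.0880 ± 0.00101% in R820W with vehicle, 0.0831 ± 0.000774% in WT with mepazine, 0.0887 ± 0.000900% in KO and 0.0880 ± 0.000757% in WT with vehicle. The cytosolic share in R820W with mepazine lay below that of every other group by more than the SDs, and the mitochondrial shares of the 3 vehicle groups lay within their SDs of each other. Cytosolic counts were 4.36 to 4.39 times the mitochondrial counts in the R820W libraries with mepazine, 4.89 to 5.08 times in R820W with vehicle, 4.87 to 5.02 times in WT with mepazine, 5.10 to 5.28 times in KO and 5.38 to 5.56 times in WT with vehicle. This ratio was lowest in all 3 R820W libraries with mepazine and highest in all 3 WT libraries with vehicle, and the groups of R820W with vehicle and WT with mepazine overlapped. Being shares of a library, such values do not separate less RNA per cell from fewer cells of a kind.

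**Figure D1:**
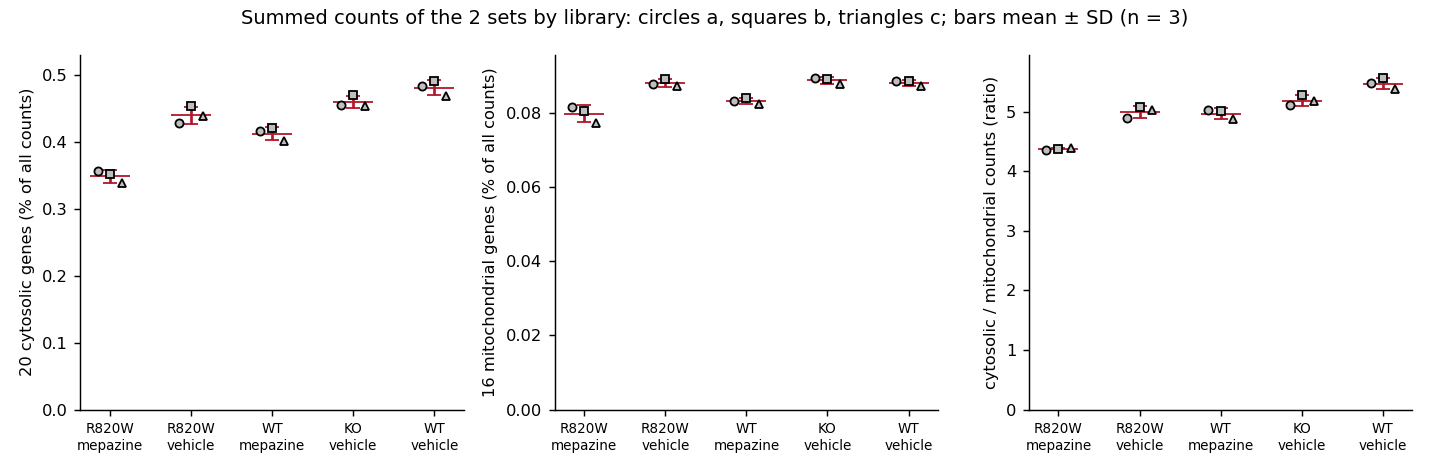
Summed counts of the cytosolic genes (left) and mitochondrial genes (middle), in % of all counts of a library, and their ratio (right), by group; points are libraries and bars mean ± SD of 3. The ratio is 4.36 to 4.39 in R820W with mepazine and 5.38 to 5.56 in WT with vehicle.

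Levels between genes are compared here as CPM per kb of exon sequence (GENCODE models). In WT cells with vehicle the cytosolic genes lay between 21.1 CPM per kb (HARS) and 178 CPM per kb (GARS), with a median of 61.7. The mitochondrial genes lay between 3.32 CPM per kb (PARS2) and 101 CPM per kb (IARS2), with a median of 10.5. GARS, for glycine, stood at 178 ± 5.22 CPM per kb and NARS, for asparagine, at 171 ± 5.00, neighbours whose means differed by less than the sum of their SDs. KARS, for lysine, at 115 ± 3.69 and IARS, for isoleucine, at 114 ± 4.15 CPM per kb came next and did not differ beyond their spread. IARS2, the mitochondrial isoleucine enzyme, stood at 101 ± 1.41 CPM per kb, above all but 4 of the cytosolic genes. The next mitochondrial gene was CARS2, for cysteine, at 45.3 ± 1.42 CPM per kb. Lower counts gave the mitochondrial genes less precise fold changes: the median SE of a log2 fold change was 0.0585 for them and 0.0437 for the cytosolic genes (mepazine against vehicle in WT).

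Most synthetase genes were at their lowest in R820W cells with mepazine, set here against R820W cells with vehicle. Of the 20 cytosolic genes 19 fell and 1, QARS, rose; of the 16 mitochondrial genes 8 fell and the other 8 were not called. Over all genes tested 24.8% were called lower and 22.1% higher and 46.8% in either direction (adjusted p under 0.05 by Benjamini-Hochberg, from the quasi-likelihood test of edgeR, as in all that follows). The median log2 fold change was -0.41 over the cytosolic genes, -0.18 over the mitochondrial genes and 0.02 over all genes tested. In all 3 R820W libraries with mepazine, 18 of the 20 cytosolic genes (all but QARS and WARS) were below every one of the other 12 libraries, as were 6 of the 16 mitochondrial genes (CARS2, EARS2, IARS2, MARS2, NARS2 and YARS2). The share of all genes that did so was not computed, so these counts cannot be set against the table as a whole. Against R820W with vehicle alone, every mepazine value was below every vehicle value for 19 of 20 cytosolic and 10 of 16 mitochondrial genes. The same held for 27.3% of all genes tested.

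GARS had 238, 249 and 235 CPM in the R820W libraries with mepazine, against 368, 405 and 394 CPM in R820W with vehicle. Its log2 fold change was -0.69 ± 0.0464 (SE; adjusted p = 6.54e-12), so that it fell by 38.1%. MARS, for methionine, had 127, 127 and 120 CPM with mepazine, against 186, 199 and 183 CPM with vehicle (log2 fold change -0.60 ± 0.0447, adjusted p = 4.45e-11). The 3 values with mepazine lay below the 3 with vehicle for both genes. YARS, for tyrosine, had 131, 121 and 116 CPM with mepazine, against 185, 192 and 187 CPM with vehicle (-0.61 ± 0.0475, adjusted p = 9.04e-11). TARS, for threonine, had 243, 252 and 246 CPM with mepazine, against 344, 367 and 354 CPM with vehicle (-0.52 ± 0.0413, adjusted p = 1.25e-10). Neither gene had overlapping groups. The smallest cytosolic declines were those of AARS, for alanine (-0.19 ± 0.0450), and LARS, for leucine (-0.19 ± 0.0454).

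QARS, for glutamine, went the other way, with 162, 152 and 168 CPM in R820W with mepazine, against 149, 144 and 149 CPM in R820W with vehicle (log2 fold change 0.12 ± 0.0423, adjusted p = 0.0177). The groups did not overlap, but the difference is small: the call was lost without R820W_mepazine a, R820W_vehicle b or R820W_mepazine c (log2 fold changes of 0.09 to 0.16 with 1 of the 6 libraries omitted) and without the filter on low counts. Among the mitochondrial genes MARS2, for methionine, had 15.5, 15.8 and 14.5 CPM in R820W with mepazine, against 25.3, 29.1 and 26.8 CPM with vehicle. It fell by 43.7% (log2 fold change -0.83 ± 0.0671, adjusted p = 1.87e-10), further than any cytosolic gene. NARS2, for asparagine, had 34.5, 39.0 and 35.6 CPM with mepazine, against 49.1, 50.6 and 44.0 CPM with vehicle (-0.40 ± 0.0595, adjusted p = 4.08e-06). Both mitochondrial genes had every mepazine value below every vehicle value. YARS2 (-0.34), EARS2 for glutamate (-0.29), CARS2 (-0.28), FARS2 for phenylalanine (-0.23), LARS2 (-0.21) and IARS2 (-0.21) were the other 6 that fell. The groups overlapped for FARS2, whose call was lost without R820W_vehicle a, R820W_mepazine a or R820W_mepazine b (log2 fold changes of -0.34 to -0.14), with DESeq2 and in the fit of only these 2 groups, and LARS2 lost its call without R820W_mepazine c (-0.32 to -0.16). AARS2, HARS2, PARS2, RARS2, SARS2, TARS2, VARS2 and WARS2 were not called, with log2 fold changes from -0.15 (WARS2) to 0.01 (AARS2). HARS2 was called with a block for the replicate letter and without R820W_mepazine a or R820W_vehicle c, and WARS2 without R820W_mepazine c.

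**Figure D2:**
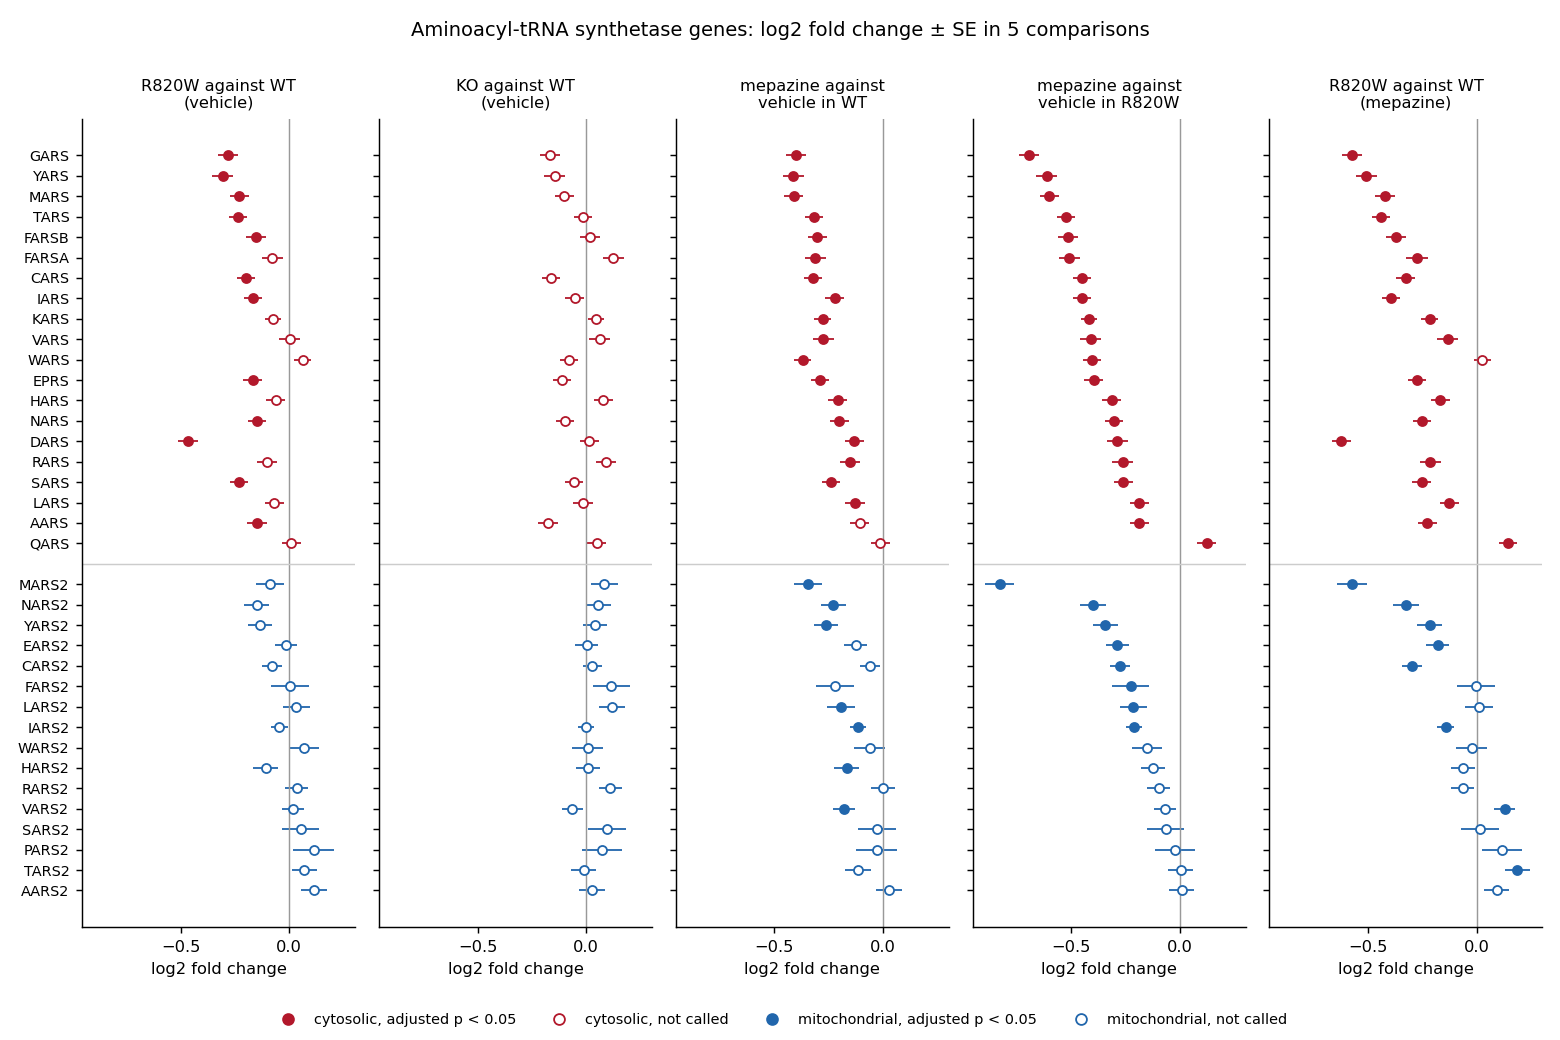
Log2 fold change (horizontal axis) ± SE of the 36 genes in 5 comparisons, cytosolic genes in red above and mitochondrial genes in blue below, each ordered by mepazine against vehicle in R820W; filled points passed adjusted p under 0.05. In that comparison 19 cytosolic genes lie left of 0 and QARS right of it, while mitochondrial genes spread from -0.83 to 0.01.

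In WT cells with mepazine, against WT cells with vehicle, 18 of the 20 cytosolic genes and 7 of the 16 mitochondrial genes fell, and none of either rose. Over all genes tested 11.6% were called lower, 12.4% higher and 24% in either direction. The median log2 fold change was -0.28 over the cytosolic genes, -0.12 over the mitochondrial genes and 0.02 over all genes tested. The cytosolic genes not called were QARS (-0.01 ± 0.0427, adjusted p = 0.869) and AARS (-0.11 ± 0.0448, adjusted p = 0.0857). AARS was called with DESeq2, with a block for the replicate letter, in the fit of only these 2 groups and without WT_vehicle c. MARS had 172, 167 and 163 CPM in WT with mepazine, against 233, 224 and 210 CPM in WT with vehicle (-0.41 ± 0.0441, adjusted p = 1.01e-07). WARS, for tryptophan, had 150, 151 and 146 CPM with mepazine, against 197, 192 and 189 CPM with vehicle (-0.37 ± 0.0400, adjusted p = 1.15e-07). All values with mepazine were below all values with vehicle for both genes.

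YARS had 177, 180 and 166 CPM in WT with mepazine, against 246, 233 and 218 CPM in WT with vehicle, and fell by 24.8% (log2 fold change -0.41 ± 0.0467, adjusted p = 2.33e-07). GARS had 359, 374 and 342 CPM with mepazine, against 475, 486 and 459 CPM with vehicle (-0.40 ± 0.0458, adjusted p = 2.74e-07). Of the mitochondrial genes MARS2 had 24.1, 22.1 and 21.7 CPM with mepazine, against 29.6, 27.2 and 29.5 CPM with vehicle (-0.34 ± 0.0644, adjusted p = 2.54e-04). YARS2 had 33.6, 38.1 and 35.8 CPM with mepazine, against 44.3, 41.9 and 42.4 CPM with vehicle (-0.26 ± 0.0559, adjusted p = 0.00101). The groups did not overlap for any of these 4 genes, and 19.1% of all genes tested had every mepazine value below every vehicle value. NARS2, LARS2, VARS2, HARS2 and IARS2 were the other mitochondrial genes that fell, by 0.11 to 0.23 on the log2 scale. FARS2 was called only without the filter on low counts, in the fit of only these 2 groups and without WT_vehicle c. EARS2 was called only without WT_vehicle c. Several of the smaller calls were lost when 1 library was left out. DARS was lost without WT_vehicle b or c or WT_mepazine b or c (-0.16 to -0.11 with 1 of the 6 libraries omitted), LARS without WT_vehicle a or b or WT_mepazine a or c (-0.15 to -0.11) and RARS without WT_vehicle b or c or WT_mepazine a or c (-0.19 to -0.14). HARS2 was lost without WT_vehicle a or b or WT_mepazine c (-0.20 to -0.13), IARS2 without WT_vehicle b or c or WT_mepazine c (-0.13 to -0.10), LARS2 without WT_vehicle a or b or WT_mepazine b or c (-0.25 to -0.15) and VARS2 without WT_vehicle c (-0.20 to -0.16).

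The interaction term asks whether mepazine changed a gene by a different amount in R820W than in WT. It was negative, meaning a larger decline in R820W, and passed the test for GARS, IARS, TARS and MARS2, that is 3 of 20 cytosolic and 1 of 16 mitochondrial genes, against 3.07% of all genes tested called lower and 3.85% called in either direction. None of the 36 was called higher, against 0.788% of all genes; QARS had the largest positive term (0.14 ± 0.0601, adjusted p = 0.204). The median was -0.13 over the cytosolic genes, -0.06 over the mitochondrial genes and -0.03 over all genes tested. MARS2 had an interaction of -0.48 ± 0.0931 (adjusted p = 0.00498) and stayed called in each of the 12 fits that left out 1 library. GARS had -0.29 ± 0.0650 (adjusted p = 0.0139), lost without WT_mepazine b or R820W_vehicle b (-0.33 to -0.26 with 1 of the 12 libraries omitted). IARS, with 363, 367 and 343 CPM in R820W with mepazine, 470, 507 and 490 CPM in R820W with vehicle, 470, 482 and 458 CPM in WT with mepazine and 548, 568 and 529 CPM in WT with vehicle, had -0.23 ± 0.0605 (adjusted p = 0.0328). IARS was lost in 7 of the 12 fits, those without WT_vehicle a or c, WT_mepazine a or b, R820W_vehicle b or c or R820W_mepazine c (-0.26 to -0.20). TARS had -0.21 ± 0.0581 (adjusted p = 0.0441) and was lost in 9 of them, those without WT_vehicle a, b or c, WT_mepazine a or b, R820W_vehicle b or c or R820W_mepazine a or c (-0.23 to -0.18), and with the size factors of DESeq2. The count of 3 cytosolic genes was 0 to 6 and that of 1 mitochondrial gene 1 or 2 over these fits. FARSB and CARS2, not called in the main fit, were each called in 5 other settings, and YARS in 3.

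**Figure D3:**
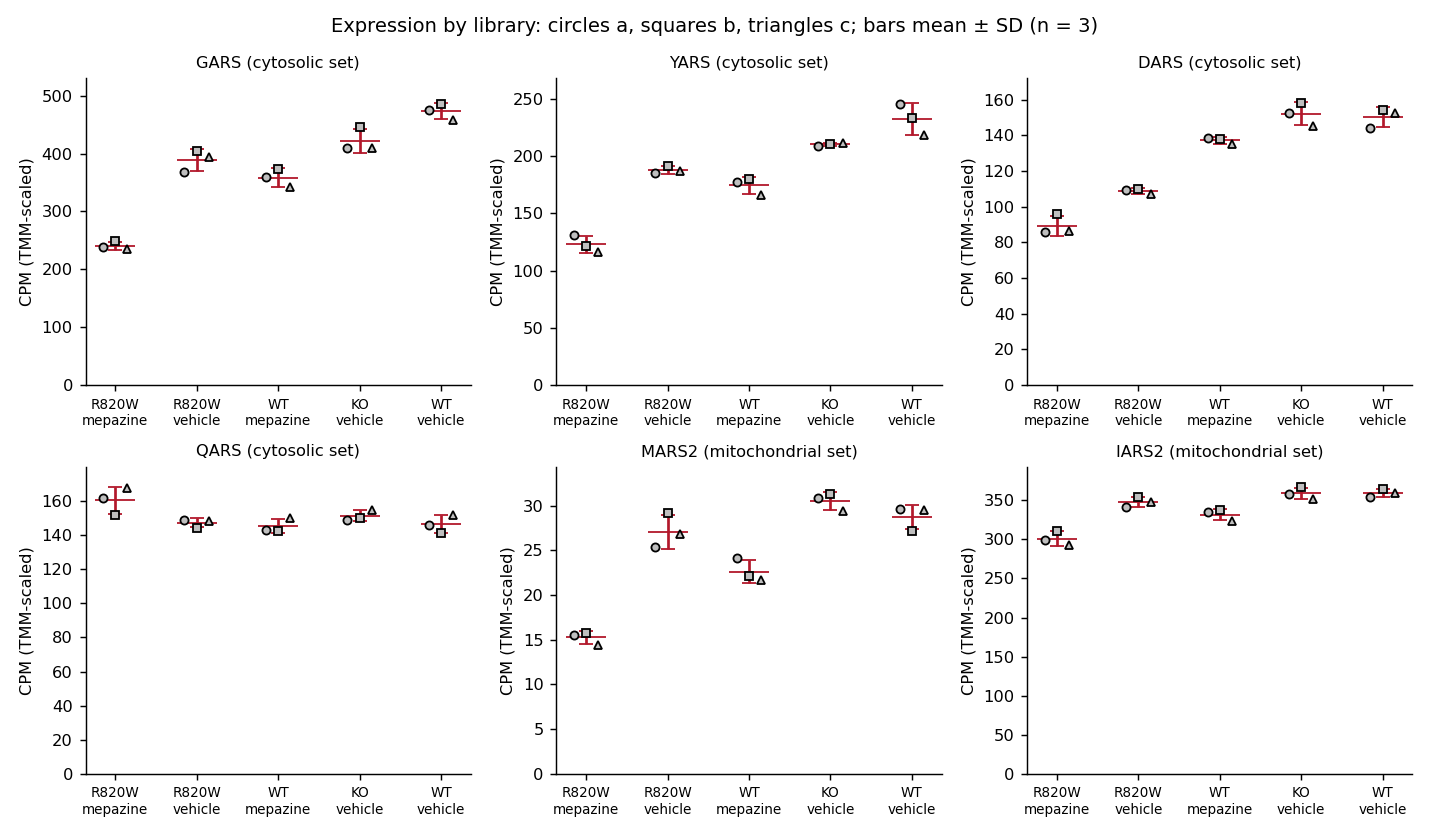
CPM by library for 4 genes of the cytosolic set and 2 of the mitochondrial set, with groups from R820W with mepazine (left) to WT with vehicle (right); points are libraries and bars mean ± SD of 3. MARS2 lies between 14.5 and 15.8 CPM in R820W with mepazine and between 27.2 and 29.6 CPM in WT with vehicle, while QARS stays between 141 and 168 CPM in all libraries.

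Between R820W and WT cells, both with vehicle, 12 of the 20 cytosolic genes fell and none rose, against 8.61% of all genes tested called lower, 10.6% higher and 19.2% in either direction. None of the 16 mitochondrial genes was called in the main edgeR fit, by DESeq2 or by limma-voom, and 2 of them, NARS2 and YARS2, had an unadjusted p under 0.05. The median log2 fold change was -0.15 over the cytosolic genes, 0.01 over the mitochondrial genes and 0.001 over all genes tested. DARS, for aspartate, had 109, 110 and 107 CPM in R820W, against 144, 154 and 153 CPM in WT, and fell by 27.6% (-0.47 ± 0.0452, adjusted p = 8.58e-09). YARS had 185, 192 and 187 CPM in R820W, against 246, 233 and 218 CPM in WT (-0.31 ± 0.0466, adjusted p = 1.51e-05). Neither gene had overlapping groups.

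GARS had 368, 405 and 394 CPM in R820W with vehicle, against 475, 486 and 459 CPM in WT with vehicle (-0.28 ± 0.0457, adjusted p = 3.66e-05). TARS had 344, 367 and 354 CPM in R820W, against 428, 420 and 405 CPM in WT (-0.23 ± 0.0409, adjusted p = 1.02e-04). For both genes every R820W value lay below every WT value, as it did for 18.1% of all genes tested. SARS, MARS, CARS, EPRS, IARS, FARSB, NARS and AARS were the other 8, with declines of 0.15 to 0.23 on the log2 scale. AARS was lost without WT_vehicle a or b or R820W_vehicle a or c (-0.20 to -0.11 with 1 of the 6 libraries omitted), FARSB without WT_vehicle a or b or R820W_vehicle a (-0.17 to -0.14) and NARS without WT_vehicle b or R820W_vehicle a or c (-0.17 to -0.13). WARS had the highest log2 fold change of the cytosolic set (0.06 ± 0.0396, adjusted p = 0.315), and VARS and QARS were at 0.003 and 0.01. NARS2 had -0.15 ± 0.0581 (adjusted p = 0.0707), and was called without R820W_vehicle b and in the fit of only these 2 groups. It was also called with a block for the replicate letter, as was RARS.

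Under mepazine R820W stood below WT at 18 of 20 cytosolic and 6 of 16 mitochondrial genes, and above it at QARS, TARS2 and VARS2, against 25.4% of all genes tested called lower, 19.4% higher and 44.9% in either direction. The median log2 fold change was -0.26 over the cytosolic genes, -0.04 over the mitochondrial genes and -0.01 over all genes tested. DARS had 85.8, 95.7 and 86.5 CPM in R820W with mepazine, against 139, 138 and 135 CPM in WT with mepazine (-0.62 ± 0.0457, adjusted p = 2.38e-11). GARS, TARS and YARS had log2 fold changes of -0.58, -0.44 and -0.51, from the values given above for both groups. MARS2 had 15.5, 15.8 and 14.5 CPM in R820W, against 24.1, 22.1 and 21.7 CPM in WT (-0.57 ± 0.0683, adjusted p = 1.57e-07), and CARS2 had 67.5, 68.3 and 63.7 CPM in R820W, against 76.4, 85.4 and 83.7 CPM in WT (-0.30 ± 0.0460, adjusted p = 7.50e-06). The groups did not overlap for DARS, MARS2 or CARS2, and 28.6% of all genes tested had every R820W value below every WT value. EARS2, IARS2, NARS2 and YARS2 also fell. WARS, with 151, 147 and 157 CPM in R820W and 150, 151 and 146 CPM in WT, was the cytosolic gene not called (0.03 ± 0.0402, adjusted p = 0.622).

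Of the genes higher in R820W under mepazine, QARS had a log2 fold change of 0.15 ± 0.0424 (adjusted p = 0.00643), lost without R820W_mepazine c (0.11 to 0.18 with 1 of the 6 libraries omitted). TARS2, the mitochondrial threonine enzyme, had 38.9, 35.5 and 38.5 CPM in R820W, against 32.2, 31.5 and 35.7 CPM in WT (0.19 ± 0.0578, adjusted p = 0.00926). Its groups overlapped, and it was lost without WT_mepazine b (0.15 to 0.24). VARS2, for valine, had 0.13 ± 0.0502 (adjusted p = 0.0376) and was lost without WT_mepazine a or b or R820W_mepazine a or c (0.10 to 0.15), with DESeq2 and without the filter on low counts. LARS and VARS, both lower, were lost in the fit of only these 2 groups. LARS was also lost without WT_mepazine a or b or R820W_mepazine c (-0.16 to -0.08), and VARS without WT_mepazine c or R820W_mepazine b or c (-0.18 to -0.10). The mepazine and genotype comparisons share libraries, so their values are not independent of each other.

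In KO cells none of the 36 genes was called in the main edgeR fit, by DESeq2 or by limma-voom, in a comparison where 0.374% of all genes tested were called, 0.287% higher and 0.0868% lower. The edgeR fit with a block for the replicate letter called AARS, CARS and GARS lower, among 103 of the 14971 genes tested. At an unadjusted p under 0.05 there were 8 cytosolic genes, AARS, CARS, EPRS, GARS, MARS, NARS and YARS with negative and FARSA with positive log2 fold changes, and 1 mitochondrial gene, RARS2, with a positive one. The median log2 fold change was -0.03 over the cytosolic genes, 0.03 over the mitochondrial genes and 0.003 over all genes tested. GARS had 410, 446 and 409 CPM in KO, against 475, 486 and 459 CPM in WT, groups that did not overlap (-0.17 ± 0.0457, adjusted p = 0.165). AARS had 152, 150 and 160 CPM in KO, against 177, 182 and 162 CPM in WT (-0.18 ± 0.0448, adjusted p = 0.114), again without overlap, and was called without WT_vehicle c. DARS had 152, 158 and 146 CPM in KO, against 144, 154 and 153 CPM in WT, and the groups overlapped (0.02 ± 0.0446, adjusted p = 0.969). Every KO value lay below every WT value for 5 of the 20 cytosolic genes and above for 3. Over all genes tested the shares were 5.23% below and 7.34% above.

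For 13 amino acids the table holds 1 cytosolic and 1 mitochondrial gene, which allows both to be set side by side. The cytosolic log2 fold change was the lower one for 10 of the 13 with mepazine in R820W, 11 with mepazine in WT, 11 in R820W against WT with vehicle, 11 in KO against WT and 10 in R820W against WT under mepazine. The interaction was the lower one in the cytosolic gene for 8 of the 13, with a median difference of -0.04. For the fold changes the median difference, cytosolic minus mitochondrial, was -0.19 with mepazine in R820W, -0.14 with mepazine in WT, -0.12 in R820W against WT with vehicle, -0.13 in KO against WT and -0.15 in R820W against WT under mepazine, and the pairs are shared by comparisons that share libraries. Threonine had the widest pair with mepazine in R820W, with TARS at -0.52 and TARS2 at 0.004. TARS2 had 38.9, 35.5 and 38.5 CPM with mepazine, against 37.9, 36.6 and 38.3 CPM with vehicle, and these overlapped. Methionine was the reverse, with MARS at -0.60 and MARS2 at -0.83, and asparagine (NARS -0.30, NARS2 -0.40) and leucine (LARS -0.19, LARS2 -0.21) also had the lower value in the mitochondrial gene. HARS and HARS2 lie side by side on opposite strands and overlap in 9.49% of the exon bases of HARS and 14.2% of those of HARS2, and whether counting used strand is not given in the sources, so their counts may share reads. SARS2 shares 67.4% of its exon bases with another gene model on its own strand in GENCODE, so its counts are uncertain as well. MARS overlaps DDIT3 on the opposite strand in 2.13% of its exon bases, YARS overlaps S100PBP in 7.66%, EARS2 overlaps UBFD1 in 8.15% and WARS overlaps WDR25 and an antisense gene in 11% of theirs. No 50-base stretch was shared between any of the 36 genes in transcripts read on their own strands. That search cannot see overlaps on opposite strands.

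**Figure D4:**
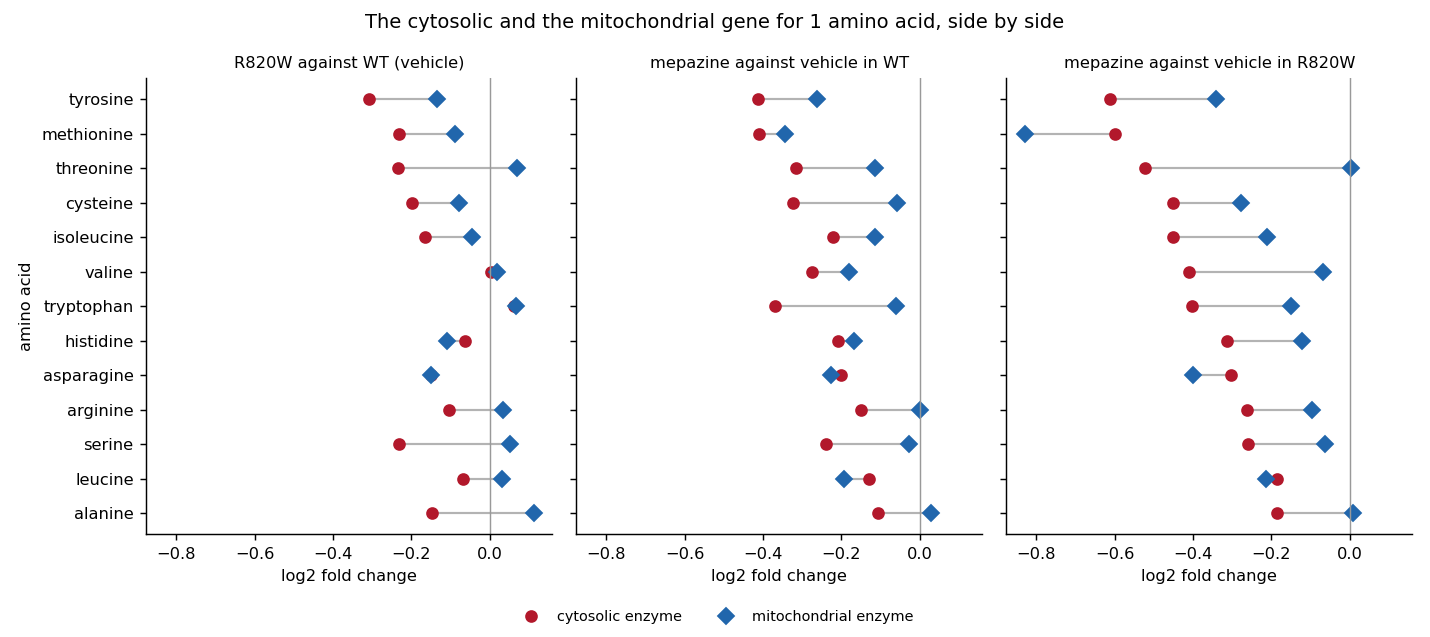
Log2 fold change of the cytosolic gene (red circle) and the mitochondrial gene (blue diamond) for 13 amino acids in 3 comparisons. With mepazine in R820W (right) the cytosolic gene is the lower one for 10 of 13, and methionine, asparagine and leucine are the exceptions.

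The cytosolic set holds the 8 enzymes of the multisynthetase complex and 12 enzymes outside it. With mepazine in R820W 7 of the 8 fell and QARS rose, with a median log2 fold change of -0.34. All 12 outside the complex fell, with a median of -0.43, where 24.8% of all genes tested were called lower. In R820W against WT with vehicle 4 of the 8 and 8 of the 12 fell, with medians of -0.13 and -0.15. In that comparison 8.61% of all genes tested were called lower. Of 13 enzymes commonly listed as ATF4 targets, 10 fell in R820W against WT with vehicle (median -0.17), against 2 of the 7 other cytosolic enzymes, DARS and FARSB (median -0.08). In the mepazine comparisons the counts were 13 of 13 and 6 of 7 in R820W, and 12 of 13 and 6 of 7 in WT. Over all genes tested 24.8% were called lower in R820W and 11.6% in WT. In KO against WT 12 of the 13 had a negative log2 fold change and none of the 7 did, against 7271 of all 14971 genes tested. None of the 20 was called in the main fit. Class I and class II, the unrelated folds of these enzymes, had medians of -0.41 and -0.37 with mepazine in R820W, and -0.13 and -0.15 in R820W against WT with vehicle. EPRS, which charges both glutamate and proline, was counted in class I only. The 6 cytosolic genes with the composite element printed above all fell in R820W against WT with vehicle (median -0.18), as did 4 of the 10 without it (median -0.09). With mepazine in R820W all 6 fell (median -0.45), and so did 9 of the 10 without it (median -0.40), while with mepazine in WT 5 of the 6 fell (median -0.27) and 9 of the 10 (median -0.28). No promoter sequence was found for DARS, LARS, VARS and YARS, so they are in neither group. Their log2 fold changes in R820W against WT with vehicle were -0.47, -0.07, 0.003 and -0.31.

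The partners of charging were read from a list of 24 symbols, of which 23 were in the table and tested. The list holds the scaffold proteins AIMP1, AIMP2 and EEF1E1, the tRNA exporter XPOT, elongation factors that receive the charged tRNA, amidotransferase subunits and others. With mepazine in R820W 16 of 23 fell and none rose, with a median log2 fold change of -0.27, against 24.8% of all genes tested called lower, 22.1% called higher and a median of 0.02. XPOT had 181, 195 and 170 CPM with mepazine, against 247, 268 and 255 CPM with vehicle (-0.50 ± 0.0497, adjusted p = 7.34e-09), and EEF1E1 had 26.6, 28.2 and 28.6 CPM, against 42.5, 38.7 and 39.7 CPM (-0.54 ± 0.0620, adjusted p = 8.98e-08). The groups did not overlap in either. TUFM, the mitochondrial elongation factor, fell by 0.34 and AARSD1, which resembles the editing domain of alanyl-tRNA synthetase, fell by 0.48 on the log2 scale; the scaffolds AIMP1 and AIMP2 fell by 0.31 and 0.48. With mepazine in WT 6 of 23 fell, against 11.6% of all genes tested: AARSD1 (-0.44), TUFM (-0.26), AIMP2 (-0.25, lost without WT_vehicle a, -0.32 to -0.19), XPOT (-0.18, lost without WT_vehicle b or WT_mepazine c, -0.20 to -0.15), AIMP1 (-0.18, lost without WT_vehicle b or WT_mepazine c, -0.21 to -0.14) and EEF1A1 (-0.13, lost without WT_vehicle a or WT_mepazine a or b, -0.14 to -0.10).

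In R820W against WT with vehicle 3 of the 23 partners fell, a share near the 8.61% of all genes tested that were called lower. These were XPOT (-0.22 ± 0.0492, adjusted p = 0.00182), EEF1E1 (-0.21 ± 0.0598, adjusted p = 0.0145; lost without WT_vehicle b or c or R820W_vehicle b or c, -0.25 to -0.18) and AIMP1 (-0.16 ± 0.0513, adjusted p = 0.0295; lost without WT_vehicle a or b or R820W_vehicle c, -0.18 to -0.12). Under mepazine 14 fell and 1, SEPSECS, rose in R820W against WT (25.4% of all genes tested lower, 19.4% higher), led by XPOT (-0.54), EEF1E1 (-0.61), PTRH2, a peptidyl-tRNA hydrolase (-0.36), and AIMP1 (-0.29). SEPSECS was lost without WT_mepazine a or b or R820W_mepazine b or c (0.17 to 0.32), with DESeq2, without the filter on low counts and in the fit of only these 2 groups. Of the 14, MTFMT was lost without WT_mepazine a or b or R820W_mepazine a or b (-0.20 to -0.12), with DESeq2, with either other filter setting and in the fit of only these 2 groups, and AARSD1 was lost without R820W_mepazine a (-0.22 to -0.16). The interaction was negative and called for 3 of the 23 partners, against 3.07% of all genes tested: EEF1E1 (-0.40 ± 0.0860, adjusted p = 0.0111), XPOT (-0.32 ± 0.0699, adjusted p = 0.0115; lost without R820W_vehicle b, -0.38 to -0.28) and PTRH2 (-0.30 ± 0.0834, adjusted p = 0.0439; lost in 9 of 12 fits that left out 1 library, those without WT_vehicle a, b or c, WT_mepazine a or b, R820W_vehicle b or c or R820W_mepazine a or c, -0.33 to -0.27, and with DESeq2 or its size factors). In KO none of the 23 was called in the main edgeR fit, and 0 had an unadjusted p under 0.05.

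The genes of the amino acid response, a list of 22 symbols of which 21 were in the table and 19 tested, include the kinase EIF2AK4 (GCN2), which senses uncharged tRNA, the factor ATF4 and its targets. With mepazine in R820W 13 of 19 fell and 3 (ATF3, DDIT3 and DDIT4) rose, with a median log2 fold change of -0.31, against 24.8% of all genes tested called lower and 22.1% called higher. ASNS, asparagine synthetase, had 24.7, 24.6 and 21.9 CPM with mepazine, against 54.0, 64.4 and 60.8 CPM with vehicle (-1.33 ± 0.0884, adjusted p = 1.78e-09). CHAC1, a glutathione-degrading enzyme, had 2.78, 2.79 and 1.74 CPM, against 10.8, 11.3 and 11.1 CPM (-2.19 ± 0.137, adjusted p = 4.76e-12). PSAT1, of serine synthesis, and STC2, a secreted glycoprotein, fell by 1.15 and 1.03 on the log2 scale. ATF4 itself had 244, 229 and 258 CPM in R820W with mepazine, 293, 290 and 294 CPM in R820W with vehicle, 305, 300 and 291 CPM in WT with mepazine, 313, 336 and 331 CPM in KO and 369, 354 and 341 CPM in WT with vehicle. Its log2 fold change was -0.26 ± 0.0440 with mepazine in R820W (adjusted p = 2.33e-05), -0.25 ± 0.0438 with mepazine in WT (adjusted p = 1.32e-04) and -0.28 ± 0.0438 in R820W against WT with vehicle (adjusted p = 2.55e-05), and its interaction was not called (-0.01 ± 0.0620, adjusted p = 0.941).

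In WT cells with mepazine 9 of the 19 response genes fell and DDIT3 rose (11.6% of all genes tested lower, 12.4% higher), with ASNS (-0.80), CHAC1 (-0.85), SLC3A2, the heavy chain of amino acid transporters (-0.29), and STC2 (-0.42) first by adjusted p. In R820W against WT with vehicle 12 of 19 fell and none rose (8.61% of all genes lower, 10.6% higher), led by STC2 (-0.50), ATF4, CHAC1 (-0.60) and EIF2AK4 (-0.21). Under mepazine 12 of 19 fell and ATF3 rose in R820W against WT (25.4% of all genes lower, 19.4% higher), with STC2 (-1.12), CHAC1 (-1.94), TRIB3, a pseudokinase induced by ATF4 (-0.50), and ASNS (-0.97) first. The interaction was called for CHAC1 (-1.34 ± 0.179, adjusted p = 2.91e-04), STC2 (-0.62 ± 0.106, adjusted p = 0.00212), PSAT1 (-0.58 ± 0.113, adjusted p = 0.0152; lost without R820W_mepazine a, -0.65 to -0.51) and ASNS (-0.53 ± 0.121, adjusted p = 0.0233; lost without R820W_mepazine a or c or R820W_vehicle b or c, -0.60 to -0.44), among 6 lower and 2 higher, where 3.07% of all genes were called lower and 0.788% higher. Of the other 4 called, TRIB3 and DDIT4 were lost in 7 and ATF3 and CEBPB in 8 of the 12 fits that left out 1 library, those without WT_mepazine b and R820W_vehicle b among them. In KO against WT 2 of 19 fell, against 0.0868% of all genes tested: DDIT4 (-0.47 ± 0.0737, adjusted p = 0.00552) and SESN2 (-0.35 ± 0.0758, adjusted p = 0.0257), both inhibitors of mTORC1 signalling. SESN2 was lost in 5 of 6 fits that left out 1 library, all but the one without WT_vehicle c (-0.43 to -0.26), and with DESeq2, limma-voom or the fit of only these 2 groups. MYC had 98.6, 98.7 and 98.9 CPM in R820W with mepazine, 154, 159 and 164 CPM in R820W with vehicle, 153, 161 and 152 CPM in WT with mepazine, 194, 200 and 193 CPM in KO and 201, 193 and 197 CPM in WT with vehicle, so that the R820W libraries with mepazine were the lowest and the KO and WT vehicle libraries overlapped. Its log2 fold change was -0.69 ± 0.0399 with mepazine in R820W (adjusted p = 6.34e-13), -0.34 ± 0.0389 with mepazine in WT (adjusted p = 2.32e-07), -0.31 ± 0.0388 in R820W against WT with vehicle (adjusted p = 7.61e-07) and -0.01 ± 0.0386 in KO cells (adjusted p = 0.976), and it had an interaction of -0.34 ± 0.0556 (adjusted p = 0.00125) that was kept with any 1 library omitted.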

How the data were processed

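The table deposited by the authors holds raw counts per gene symbol for 15 libraries, not normalised. The labels' protocols describe directional libraries from total RNA. FastQC, MACS2, DESeq2 and hg19 are named, per the submitters' processing notes, without roles or versions; no aligner, counter, annotation or strand setting is given in the sources used here. Groups and letters come from the sample titles. The series describes 3 independent experiments, but no label ties a letter to one, so the p-values describe variation among these samples, and that may be technical. No library was a copy of another (chi-square per gene of 3.31 to 14.8 within groups).

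Genes were filtered with filterByExpr (minimum count 10) in R 4.3.3 with edgeR 4.0.16, and CPM use TMM factors. The quasi-likelihood model (robust) took all libraries with group as its only term, with 6 two-sided contrasts and Benjamini-Hochberg adjustment over the 14971 genes tested. It was checked on simulated counts. Alternatives used DESeq2 1.42.0, its size factors, limma-voom (limma 3.58.1), other filters, a letter block, only the groups compared, and each library left out. Floors cover counting error only. Medians and counts over members carry no test.

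The members and gene lists were chosen with earlier results of these data known, and support nothing independently. Per contrast, values per library or fold changes with errors were set by rule for the 4 cytosolic and 2 mitochondrial members, and for up to 4 genes of each list, with the smallest adjusted p under 0.05; values of other genes given in full were chosen after they were seen. Exon lengths and overlaps come from GENCODE (GRCh38), promoters from RefSeq; the list symbols GCN1 and GATB match no row, though their older names GCN1L1 and PET112 do.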

Additional observations from a re-analysis of the deposited data

Results flagged for a closer look

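For 4 genes the response to mepazine differed between R820W and WT cells by the test of the interaction (edgeR's quasi-likelihood test). The difference of the log2 fold changes, R820W minus WT, was -0.48 for MARS2 (adjusted p = 0.00498), -0.29 for GARS (adjusted p = 0.0139), -0.23 for IARS (adjusted p = 0.0328) and -0.21 for TARS (adjusted p = 0.0441). Over all genes tested 3.85% were called in this test, 3.07% lower. Only MARS2 kept its call in each of the 12 fits that left out 1 library. GARS lost it in 2, IARS in 7 and TARS in 9, and TARS also with the size factors of DESeq2. All 4 genes fell with mepazine in both genotypes. On the log2 scale MARS2 fell by 0.83 in R820W and by 0.34 in WT, GARS by 0.69 in R820W and by 0.40 in WT, IARS by 0.45 in R820W and by 0.22 in WT, and TARS by 0.52 in R820W and by 0.32 in WT.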

How the results depend on the processing

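With all libraries kept, 7 alternatives were run for 6 comparisons. Fold changes of called members kept their sign under all of them and under each library left out. For the interaction, where 3 cytosolic and 1 mitochondrial genes were called, the count was 5 cytosolic and 2 mitochondrial without the filter on low counts and 2 mitochondrial with DESeq2. For R820W against WT with vehicle, where no mitochondrial gene was called, 1 was called in the fit of only these groups. With a block for the replicate letter, 7 cytosolic and 2 mitochondrial genes were called in the interaction, 1 mitochondrial gene in R820W against WT with vehicle, and 3 cytosolic genes (AARS, CARS and GARS, all lower) in KO against WT; over all genes the block called 1401 in the interaction, against 577, and 103 in KO, against 56, and without the filter the interaction called 894. Whether the letters pair the samples was not settled. Same-letter correlations of deviations from the group means were -0.0186 to 0.111, and not every library correlated best with its own letter. Letter b did in every comparison checked (0.0582 to 0.111). All 3 letters did with mepazine in WT and in R820W against WT under mepazine.

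With single libraries left out the interaction had 0 to 6 cytosolic and 1 to 2 mitochondrial genes; there were 4 to 7 mitochondrial genes with mepazine in WT (4 without WT_vehicle b or WT_mepazine c), 0 to 1 mitochondrial genes in R820W against WT with vehicle (1 without R820W_vehicle b) and 0 to 1 cytosolic genes in KO against WT (1 without WT_vehicle c). Over all genes it gave 137 (without R820W_vehicle b) to 1362 (without R820W_mepazine b) calls in the interaction and 22 (without KO_vehicle a) to 51 in KO. The cause was not tested. In R820W against WT under mepazine the 2 mitochondrial genes called higher were 0 without WT_mepazine b and 1 without WT_mepazine a or R820W_mepazine a or c, and 1 with DESeq2 or without the filter, and QARS was not called without R820W_mepazine c. With mepazine in R820W QARS was not called without R820W_mepazine a or c or R820W_vehicle b, or without the filter. The other counts of members, taken over both directions, stayed within 1.5 times the values reported. Depth limits the mitochondrial genes most, PARS2 being the lowest at 7.25 to 9.06 CPM.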
